A study of Homo sapiens with 12 samples.

Results

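The genes examined release calcium from the endoplasmic reticulum (ER), pump it back or refill the store from outside. CD146 was lowered in cells labelled Hep3B and raised in HepG2. The set held 10 of the 61806 gene IDs counted: the inositol trisphosphate (IP3) receptors ITPR1, ITPR2 and ITPR3, the ER calcium pumps ATP2A2 and ATP2A3, the ER calcium sensors STIM1 and STIM2, and the plasma membrane channels ORAI1, ORAI2 and ORAI3. They were chosen by name for these roles, from a list drawn up with earlier results of both comparisons in view. No threshold on a value is part of the rule. For this reason the values of the 10 genes are a description of these libraries, no p-value is given for them, and their counts among the called genes support nothing further.

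Poly(A) RNA was sequenced from 12 libraries in 4 groups of 3. Libraries labelled Hep3B carried a Tet-on shRNA against CD146, the adhesion molecule encoded by MCAM, or a Tet-on control shRNA, so both groups of this line carried an inducible hairpin. HepG2 libraries carried the CD146 vector (CD146oe) or pLVX, so both groups of this line carried a vector. By name, Hep3B and HepG2 are established human liver tumour lines. The labels give neither the induction time nor whether a line was 1 clone, and they do not say that libraries of a group came from separate cultures, so the spread between libraries may be technical. The titles of the shRNA libraries end in sh1 to sh3, which is read here as a replicate number. If these endings name different hairpins, the n and SD of these groups describe hairpins instead.

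When a receptor at the cell surface activates phospholipase C, IP3 is made and opens the IP3 receptors, large channels through which calcium leaves the ER. The SERCA pumps encoded by ATP2A2 and ATP2A3 return calcium to the ER. When the store runs low, STIM proteins in the ER membrane sense it and open ORAI channels in the plasma membrane, which is called store-operated calcium entry. In liver cells these signals govern secretion, metabolism and growth.

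The upstream sequences of ITPR1 and STIM1, the members that differed most in each direction in libraries labelled Hep3B, and of ITPR3, the member that differed most in HepG2, are shown first. Each is the 250 bases before the RefSeq start of the gene (GRCh38.p14), in lower case with every GC box, GGGCGG or its reverse CCGCCC, in capitals. The windows are chr3:4493098-4493347 on the plus strand, chr11:3855414-3855663 on the plus strand and chr6:33621072-33621321 on the plus strand.
ITPR1: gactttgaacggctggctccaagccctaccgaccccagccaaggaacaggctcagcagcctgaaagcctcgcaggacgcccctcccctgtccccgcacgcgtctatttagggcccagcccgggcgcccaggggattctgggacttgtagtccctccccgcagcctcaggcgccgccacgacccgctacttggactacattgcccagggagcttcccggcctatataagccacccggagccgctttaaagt
STIM1: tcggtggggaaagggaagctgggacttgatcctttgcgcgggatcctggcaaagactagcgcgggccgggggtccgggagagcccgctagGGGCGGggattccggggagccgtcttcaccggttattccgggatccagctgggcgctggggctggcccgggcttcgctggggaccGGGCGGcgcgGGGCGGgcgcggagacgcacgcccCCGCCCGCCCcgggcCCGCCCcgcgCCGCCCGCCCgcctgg
ITPR3: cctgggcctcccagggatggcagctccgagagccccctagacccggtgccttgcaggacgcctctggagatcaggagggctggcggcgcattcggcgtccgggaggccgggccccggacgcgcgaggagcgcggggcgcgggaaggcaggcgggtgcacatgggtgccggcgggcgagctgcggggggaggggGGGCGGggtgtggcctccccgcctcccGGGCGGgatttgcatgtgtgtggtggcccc
The ITPR1 window held 0 GC boxes, the STIM1 window 8, some of which overlap each other, and the ITPR3 window 2. A GC box was found in 42.6% of 35116 windows of the same length. None of the 3 windows held a CCAAT box (CCAAT, in 32.01% of windows), a TATA box written as TATAAA (10.7%), an NFAT core written as TGGAAA (18.0%) or the ER stress element ERSE (0.0740%), on either strand. The ITPR1 window holds tatataag near its end, a related spelling that the search for TATAAA does not match. The share of G and C was 64.8% for ITPR1, 77.2% for STIM1 and 76.8% for ITPR3, against a median of 58.0% over all windows.

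Library totals were 12772991 to 18129816 counts. MCAM stood at 22.0, 24.2 and 26.9 CPM (counts relative to the library total, TMM-scaled within each line) with the CD146 shRNA, against 114, 112 and 119 CPM with the control shRNA. The CD146 vector brought MCAM to 1946, 1954 and 1897 CPM in HepG2, against 22.9, 23.5 and 23.7 CPM with pLVX. The exact 2-sided permutation test gave p = 0.1 in each line, the smallest that 3 against 3 libraries allow. Of 8 hepatocyte markers, 0 averaged 10 CPM or more in either group labelled Hep3B and 7 did in both HepG2 groups. The libraries labelled Hep3B thus lacked the defining transcripts of hepatocytes, and whether they came from Hep3B cells was not tested. Among libraries labelled Hep3B, the summed hepatocyte markers lay between 0.993 and 57.9 CPM with the CD146 shRNA, the highest in 1 library, and between 0.5996 and 1.16 CPM with the control shRNA. Endothelial markers summed to between 20.8 and 21.9 CPM with the CD146 shRNA and to between 2.03 and 2.46 CPM with the control shRNA, and fibroblast markers to between 92.7 and 114 CPM and to between 58.2 and 66.7 CPM. Cholangiocyte markers summed to between 157 and 162 CPM with the CD146 shRNA and to between 189 and 203 CPM with the control shRNA, and in HepG2 to between 486 and 499.8 CPM with overexpression and to between 346 and 364 CPM with pLVX. Leukocyte markers summed to at most 1.21 CPM in every library. The part of these genes in the values of the members was not tested. In bulk RNA, fewer cells of a type and less RNA per cell cannot be told apart. In edgeR's quasi-likelihood test with Benjamini-Hochberg adjustment over all genes, genes with an adjusted p under 0.05 are called here.

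With the CD146 shRNA in libraries labelled Hep3B, all 3 IP3 receptor genes were higher, ITPR1 about 3-fold, and the calcium sensor STIM1 was lower. The main SERCA pump ATP2A2 was higher as well. For ITPR2 (log2 fold change 0.20), ITPR3 (0.30) and ATP2A2 (0.31) the difference was no more than typical of this comparison. The median absolute log2 fold change of all genes tested was 0.29. The fit called 9 of the 10 members, 8 higher and 1 lower, where 55.3% of the 16968 genes tested were called, 26.8% higher and 28.5% lower. The groups did not overlap for 8 of the 10 members, against 59.8% of all genes tested, of which 29.1% were higher and 30.7% lower. The median log2 fold change of the members was 0.25, and that of all genes was 0.0010.

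ITPR1, the IP3 receptor best known from neurons, stood at 605, 615 and 605 CPM with the CD146 shRNA, against 204, 192 and 199 CPM with the control shRNA. Every CD146 shRNA library was above every control library, and the groups lay far apart. The means were 609 ± 5.91 and 199 ± 5.97 CPM (SD, n = 3 each), a log2 fold change of 1.61 (SE 0.04), and 97.5% of all genes tested had an absolute fold change no larger than this. An antisense transcript inside ITPR1, AC018816.1, also rose (log2 fold change 1.54). As it reached at most 30 counts in a library and the strand setting is not given, its reads cannot be told apart from those of ITPR1.

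ITPR3, an IP3 receptor abundant in epithelial cells, stood at 438, 447 and 438 CPM with the CD146 shRNA, against 353, 347 and 374 CPM with the control shRNA. The groups did not overlap, and the log2 fold change was 0.30 (SE 0.04). ITPR3 overlaps the mitochondrial assembly gene UQCC2 on the other strand, which had at most 562 counts in a library and a log2 fold change of -0.13. ITPR2, an IP3 receptor with high affinity for IP3 and the main one in hepatocytes, stood at 114, 108 and 115 CPM with the CD146 shRNA, against 99.1, 95.6 and 99.5 CPM with the control shRNA. Its groups were also separate, with a smaller log2 fold change of 0.20 (SE 0.05). All 3 stayed among the calls in each of 11 alternative analyses, with log2 fold changes of 1.56 to 1.63 for ITPR1, 0.26 to 0.33 for ITPR3 and 0.16 to 0.23 for ITPR2.

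**Figure D1:**
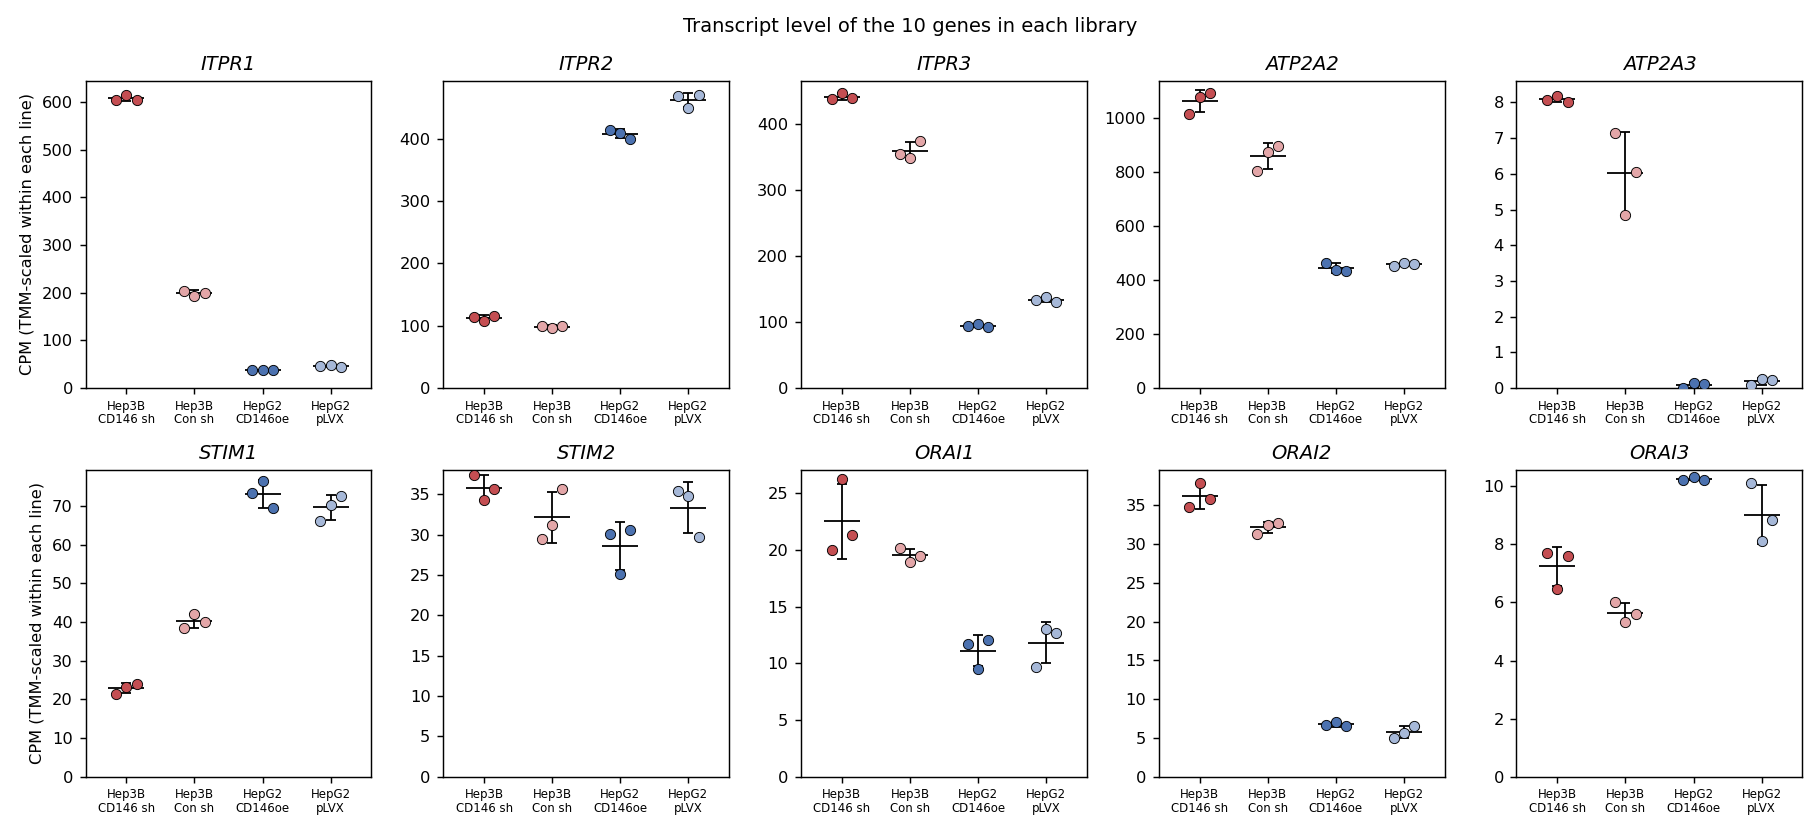
Levels of the 10 genes in CPM, TMM-scaled within each line, on linear axes from 0. Points are single libraries (3 per group) and bars are the mean ± SD. ITPR1 lies at 605 to 615 CPM with the CD146 shRNA and at 192 to 204 CPM with the control shRNA, and STIM1 lies at 21.5 to 23.9 CPM and at 38.4 to 42.1 CPM.

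ATP2A2, which encodes SERCA2, the housekeeping ER calcium pump, stood at 1014, 1077 and 1091 CPM with the CD146 shRNA, against 803, 874 and 897 CPM with the control shRNA. The groups did not overlap and the log2 fold change was 0.31 (SE 0.04). ATP2A3, which encodes SERCA3, a pump found mostly in blood and epithelial cells, stood at 8.08, 8.19 and 8.03 CPM with the CD146 shRNA, against 7.14, 4.83 and 6.06 CPM with the control shRNA. The CD146 shRNA libraries lay close together above a wider control group (log2 fold change 0.42, SE 0.13). ATP2A3 was no longer called without control shRNA replicate 2, its lowest library, where the log2 fold change was 0.29. Nor was it called by limma on the FPKM (0.37).

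STIM1, the sensor that gates ORAI channels on strong store depletion, stood at 21.5, 23.2 and 23.9 CPM with the CD146 shRNA, against 38.4, 42.1 and 40.1 CPM with the control shRNA. All CD146 shRNA libraries were below all control libraries, at 56.8% of the control mean. The log2 fold change was -0.82 (SE 0.07) and ranged from -0.85 to -0.77 over 11 alternatives. STIM2, the sensor that responds to small drops of the store, stood at 37.5, 34.3 and 35.7 CPM with the CD146 shRNA, against 29.5, 31.2 and 35.7 CPM with the control shRNA. These groups overlapped, and STIM2 was the only member tested in this line that was not called (log2 fold change 0.16, SE 0.07).

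STIM1 lies on chromosome 11 from 3854527 to 4093210 (GRCh38, GENCODE 29), and its neighbours moved the same way. Of 18 tested genes that start within 1 Mb of its start, 17 were lower with the CD146 shRNA and 16 fell, with a median log2 fold change of -0.90. Of all genes tested, 28.5% fell and 26.8% rose. The tested coding genes that start nearest to it, up to 2 on each side, were RHOG, a small GTPase (-1.01), PGAP2, an enzyme of GPI anchor maturation (-0.86), RRM1, the large subunit of ribonucleotide reductase (-1.23), and TRIM21, an antibody receptor of the cytosol (-1.03), and all 4 fell. The value for STIM1, -0.82, lies close to the median of this stretch. The 1 neighbour that rose was OR51E2 (log2 fold change 3.66). In HepG2, 6 of 11 tested neighbours of STIM1 were higher and 5 lower with overexpression, with a median of 0.01. The part of the stretch in the value for STIM1 was not tested.

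ITPR1 lies on chromosome 3 from 4493345 to 4847840, and 7 of its 8 tested neighbours were higher with the CD146 shRNA, 2 of them antisense or divergent transcripts of ITPR1 itself, with a median log2 fold change of 0.43. Its coding neighbours included BHLHE40, a transcription factor that rose (0.28), and SUMF1, an activator of sulfatases that rose (0.22). SETMAR, a DNA repair enzyme, fell (-0.58), and EDEM1, which acts in the degradation of misfolded ER proteins, rose (0.65). Each value was smaller in size than the 1.61 of ITPR1. All 3 tested neighbours of STIM2 were lower, of which RBPJ, the effector of Notch signalling, fell (-0.69) and TBC1D19 had a value of -0.11. For ITPR2, ITPR3, both SERCA genes and the ORAI genes, 12 to 72 tested neighbours lay in both directions. Of the 26 neighbours of ORAI2, 0 rose and 10 fell, where 26.8% of all genes tested rose and 28.5% fell. In HepG2, 28 of 39 tested neighbours of ITPR3 were lower with overexpression and 11 higher, with a median of -0.07. Of these, 9 fell and 2 rose, where 10.3% of all genes tested in HepG2 fell and 9.55% rose. The part of this stretch in the value for ITPR3 was not tested.

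**Figure D2:**
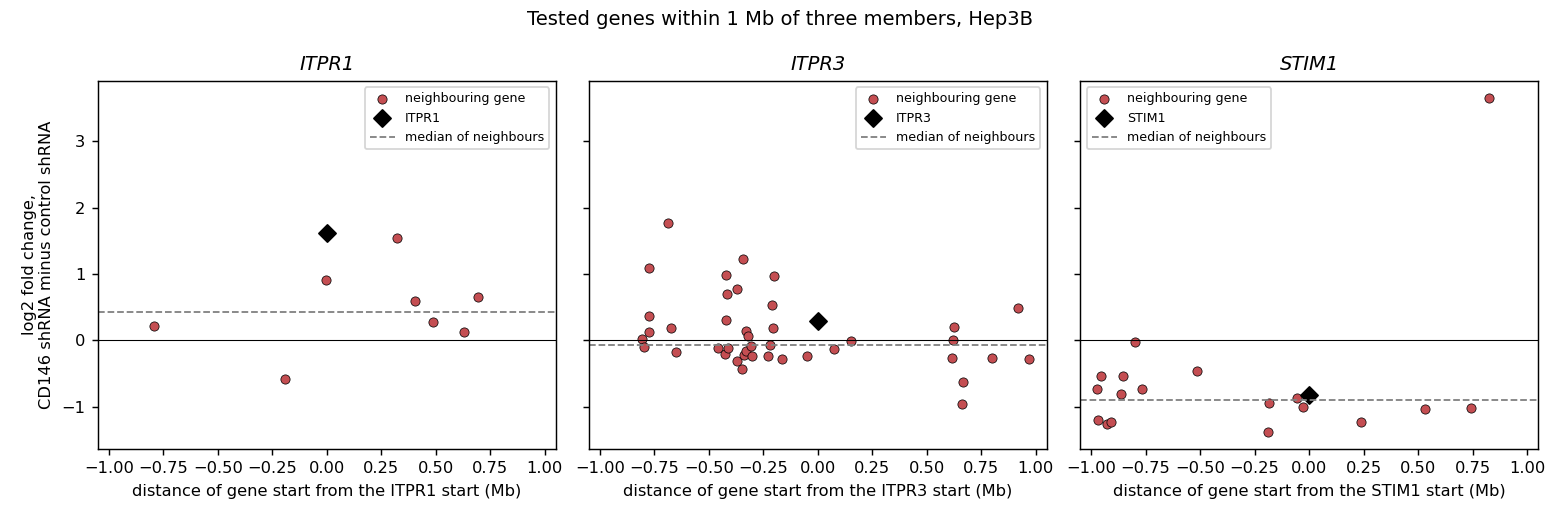
Log2 fold change (CD146 shRNA minus control shRNA, libraries labelled Hep3B) of tested genes against the distance of their start from that of ITPR1, ITPR3 or STIM1 in Mb. Diamonds mark the member and dashed lines the median of its neighbours, which is 0.43 for ITPR1, -0.07 for ITPR3 and -0.90 for STIM1.

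ORAI2, one of the ORAI channel genes, stood at 34.7, 37.9 and 35.9 CPM with the CD146 shRNA, against 31.3, 32.5 and 32.7 CPM with the control shRNA (log2 fold change 0.17, SE 0.06). ORAI3, a further member of the ORAI channel family, stood at 7.69, 6.47 and 7.59 CPM with the CD146 shRNA, against 6.02, 5.34 and 5.59 CPM with the control shRNA (log2 fold change 0.35, SE 0.14). Both pairs of groups were separate. ORAI1, the pore of the classical calcium release-activated current, stood at 19.97, 26.2 and 21.3 CPM with the CD146 shRNA, against 20.1, 18.9 and 19.5 CPM with the control shRNA. These groups overlapped, and the highest library was CD146 shRNA replicate 2, without which the log2 fold change was 0.08 in place of 0.21 (SE 0.09). All 3 were called, but none of them remained so with DESeq2, without a filter on low counts or without control shRNA replicate 2. ORAI2 overlaps ALKBH4 on the other strand, which had at most 137 counts in a library.

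With CD146 overexpression in HepG2, all 3 IP3 receptor genes were lower, ITPR3 the most. STIM2 was lower as well, and no member was called higher. The fit called 4 of the 9 members tested, all lower, where 19.8% of the 15300 genes tested were called, 9.55% higher and 10.3% lower. The groups did not overlap for 5 of the 9, against 33.6% of all genes tested, of which 16.5% were higher and 17.1% lower. The median log2 fold change of these 9 members was -0.09, and that of all genes was 0.0020.

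ITPR3 stood at 93.5, 97.1 and 92.1 CPM with overexpression, against 133, 138 and 130 CPM with pLVX. Every overexpression library was below every pLVX library, at 70.5% of the pLVX mean, with a log2 fold change of -0.51 (SE 0.04). ITPR1 stood at 37.9, 38.3 and 36.7 CPM with overexpression, against 46.3, 47.8 and 43.9 CPM with pLVX (log2 fold change -0.29, SE 0.06). ITPR2 stood at 414, 410 and 400 CPM with overexpression, against 468, 449 and 469 CPM with pLVX (log2 fold change -0.18, SE 0.03). These groups were separate too. ITPR3 was called in all 11 alternatives, while ITPR1 and ITPR2 were each called in 10 and not by limma on the FPKM, where their log2 fold changes were -0.20 and -0.11.

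STIM2 stood at 30.1, 25.1 and 30.6 CPM with overexpression, against 35.4, 34.9 and 29.7 CPM with pLVX. The groups overlapped, and the call (log2 fold change -0.21, SE 0.07) was lost in 5 of 11 alternatives, among them without CD146oe replicate 2 (-0.14), pLVX replicate 1 or pLVX replicate 2. STIM1 stood at 73.4, 76.5 and 69.5 CPM with overexpression, against 66.2, 70.4 and 72.6 CPM with pLVX, and ATP2A2 at 464, 435 and 433 CPM against 451, 463 and 457 CPM. Both pairs of groups overlapped and neither gene was called (log2 fold changes 0.06, SE 0.05, and -0.04, SE 0.03).

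ORAI1 stood at 11.7, 9.51 and 12.1 CPM with overexpression, against 9.71, 13.02 and 12.6 CPM with pLVX, and its groups overlapped. ORAI2, at 6.63, 7.08 and 6.53 CPM against 5.02, 5.69 and 6.499 CPM, and ORAI3, at 10.2, 10.3 and 10.2 CPM against 10.1, 8.13 and 8.84 CPM, had separate groups with the overexpression libraries higher by a small margin. None of the 3 was called in HepG2 (log2 fold changes -0.09, 0.23 and 0.20, SE 0.11, 0.14 and 0.11). ATP2A3 had 0, 2 and 2 counts with overexpression and 1, 4 and 3 counts with pLVX and did not pass the filter on low counts. A count of 3, taken as the floor of detection, was worth 0.165 to 0.235 CPM in a library, so a difference of ATP2A3 was not detectable in HepG2 at this depth.

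**Figure D3:**
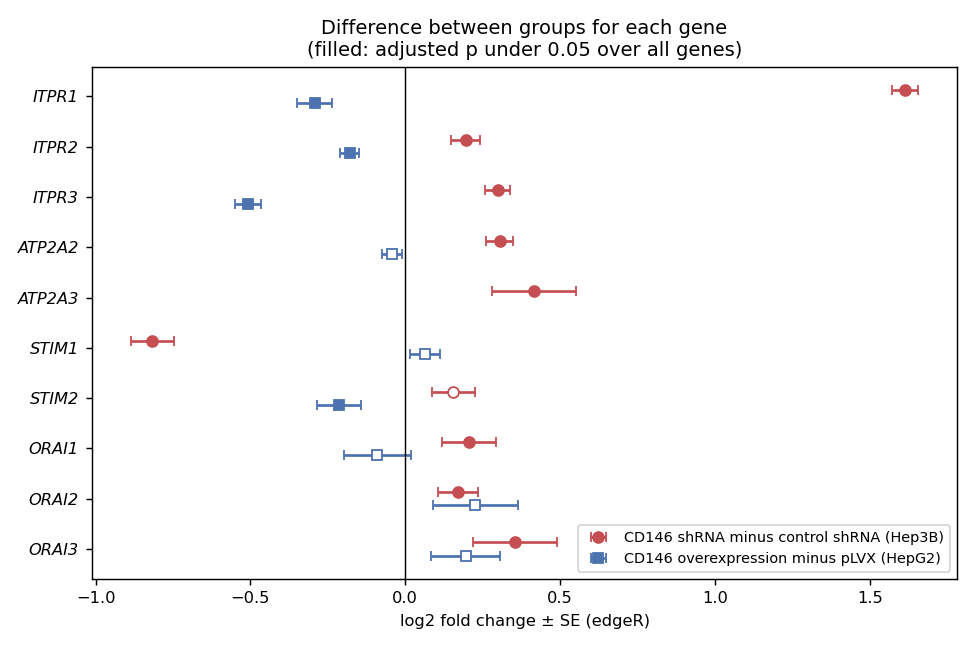
Log2 fold change ± SE of each gene from the edgeR fit of each line, with circles for CD146 shRNA minus control shRNA (Hep3B) and squares for CD146 overexpression minus pLVX (HepG2). Filled marks were called. ITPR1, ITPR2 and ITPR3 lie right of 0 for the shRNA (1.61, 0.20 and 0.30) and left of it for overexpression (-0.29, -0.18 and -0.51); ATP2A3 was not tested in HepG2.

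Levels of different genes were compared in the deposited FPKM, which are scaled by gene length. In both groups labelled Hep3B the order began with ATP2A2 (76.0 ± 2.21 FPKM with the CD146 shRNA, 63.1 ± 3.38 with the control shRNA) and ITPR3 (44.0 ± 0.437 and 36.7 ± 1.47). ITPR1 came next with the CD146 shRNA (18.7 ± 0.192 FPKM), followed by ITPR2 (7.96 ± 0.319) and ORAI1 (7.79 ± 1.09), which did not differ beyond their spread. With the control shRNA, ITPR2 (7.13 ± 0.188 FPKM) and ORAI1 (6.93 ± 0.250) again lay within their spread, and ITPR1 (6.25 ± 0.215) came below them. STIM1 stood at 1.87 ± 0.0854 FPKM with the CD146 shRNA and 3.37 ± 0.135 FPKM with the control shRNA, and ATP2A3 was lowest in both groups (1.16 ± 0.0153 and 0.883 ± 0.170 FPKM).

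In HepG2 the order was another one. ATP2A2 (33.0 ± 1.31 FPKM with overexpression, 32.4 ± 0.591 with pLVX) and ITPR2 (30.0 ± 0.481 and 32.3 ± 0.717) led, and with pLVX their ranges overlapped. ITPR3 followed (9.77 ± 0.235 and 13.2 ± 0.419 FPKM), then STIM1 (6.21 ± 0.281 and 5.64 ± 0.287). With overexpression, ORAI1 (3.997 ± 0.513 FPKM) and ORAI3 (3.97 ± 0.00577) overlapped, and every library of STIM2 (3.53 ± 0.383) was below every library of ORAI3. With pLVX, ORAI1 (4.04 ± 0.642 FPKM), STIM2 (3.92 ± 0.361) and ORAI3 (3.33 ± 0.355) did not differ beyond their spread. ITPR1 (1.20 ± 0.0231 and 1.39 ± 0.0600), ORAI2 (0.620 ± 0.0265 and 0.503 ± 0.0651) and ATP2A3 were lowest.

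Parts of this order turn with the gene length. In CPM per kb of the longest coding transcript, an alternative added after the data were seen, ITPR1 stood at 59.7 ± 0.580 with the CD146 shRNA, above ITPR3 at 44.7 ± 0.503. With the control shRNA, ITPR1 (19.5 ± 0.585 CPM per kb) lay above ORAI1 (13.04 ± 0.409) and ITPR2 (8.60 ± 0.189), the reverse of the FPKM order. ORAI1 and ITPR2 were separate on this scale with the CD146 shRNA too (15.05 ± 2.204 and 9.85 ± 0.340 CPM per kb). In HepG2, STIM1 (16.8 ± 0.815 CPM per kb with overexpression, 16.01 ± 0.744 with pLVX) lay above ITPR3 (9.55 ± 0.263 and 13.5 ± 0.402), and ATP2A2 (99.7 ± 3.87 and 102.7 ± 1.36) well above ITPR2 (35.7 ± 0.633 and 40.5 ± 1.01). STIM2 lay above ORAI3 on this scale in HepG2, at 5.55 ± 0.581 and 4.65 ± 0.0243 CPM per kb with overexpression. They stood at 6.47 ± 0.611 and 4.09 ± 0.456 CPM per kb with pLVX, and their ranges were separate in both groups. By the mean, ATP2A2 was highest and ATP2A3 lowest in all 4 groups on both scales.

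The IP3 receptor family was thus composed differently in the lines. In libraries labelled Hep3B, ITPR3 made up 62.3 ± 0.341% of the summed IP3 receptor FPKM with the CD146 shRNA and 73.3 ± 0.661% with the control shRNA, and ITPR1 made up 26.4 ± 0.110% and 12.5 ± 0.409%. In HepG2, ITPR2 made up 73.2 ± 0.447% with overexpression and 68.9 ± 1.18% with pLVX, and ITPR3 made up 23.9 ± 0.442% and 28.1 ± 1.04%. The summed FPKM of the family were 70.6 ± 0.590 with the CD146 shRNA and 50.1 ± 1.72 with the control shRNA, and 40.9 ± 0.614 with overexpression and 46.9 ± 0.242 with pLVX, and in neither line did the groups overlap.

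These shares depend on the gene length as well. The FPKM of ITPR1 correspond to a length of 32.1 kb, near the 32.5 kb of all its annotated exons merged, while its longest coding transcript has 10.2 kb; for ITPR3 both lengths are 9.87 kb. In CPM per kb of the longest coding transcript, ITPR1 rather than ITPR3 led the family with the CD146 shRNA, at 52.3 ± 0.170% against 39.1 ± 0.185%. With the control shRNA, ITPR3 led on this scale too (56.4 ± 0.911%, with ITPR1 at 30.3 ± 0.774%). In HepG2, ITPR2 led on both scales, at 73.0 ± 0.399% with overexpression and 69.2 ± 1.21% with pLVX per kb of transcript. The length alone does not alter fold changes within a gene, but FPKM are scaled by the library total and CPM by TMM. In HepG2 the mean of ATP2A2 was higher with overexpression in FPKM (33.0 against 32.4) and lower in CPM per kb (99.7 against 102.7).

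**Figure D4:**
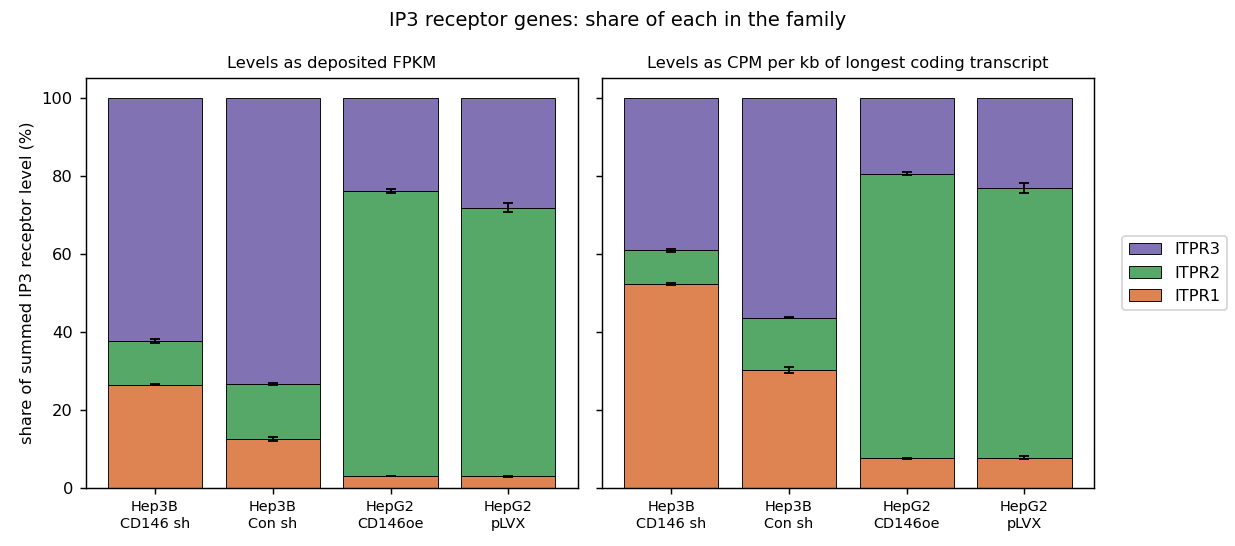
Share of each IP3 receptor gene in the summed level of the family, in percent (mean of 3 libraries; error bars are the SD of the share that ends there), from the deposited FPKM (left) and from CPM per kb of the longest coding transcript (right). ITPR1 takes 26.4% of the family with the CD146 shRNA on the left and 52.3% on the right.

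By correlation of log2 CPM over the 6 libraries of a line, the genes most like ITPR1 in libraries labelled Hep3B were ABCA7 (r = 0.9999), MYLK3 (r = 0.9998) and CELF2 (r = 0.9998), out of 10439 coding genes of at least 5 CPM. In HepG2 those most like ITPR3 were HP, which encodes haptoglobin (r = 0.9980), PSMB1 (r = 0.9963) and SAR1A (r = 0.9963), out of 10051. The 6 libraries fall into their 2 groups for these genes, so the values mainly describe a shared difference between groups.

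Other genes of calcium handling were read from 9 lists of textbook genes, of which 128 were in the table. In libraries labelled Hep3B, 102 of them were tested, and 34 rose and 33 fell with the CD146 shRNA. This was 65.7% against 55.3% of all genes (26.8% rose and 28.5% fell), with a median log2 fold change of 0.05. By list, the share called was 90% for IP3 receptor regulators, 83.3% for ER luminal proteins, and 75% for mitochondrial uptake and for lysosomal channels. It was 70.6% for IP3 production and removal and 70% for other ER channels and pumps. Below the share of all genes lay calcineurin, NFAT and sensor genes (47.1%), regulators of store-operated entry (46.7%) and exporters (40%). In HepG2, 92 of the listed genes were tested, and 11 rose and 15 fell with overexpression. This was 28.3% against 19.8% of all genes (9.55% rose and 10.3% fell), with a median of -0.02. By list, the share was 58.3% for luminal proteins, 40% for calcineurin, NFAT and sensor genes and 30.8% for mitochondrial uptake. It was 25% for other ER channels and pumps, 23.1% for regulators of store-operated entry and 20% for exporters. Lower shares were 14.3% for IP3 production and removal, 11.1% for IP3 receptor regulators and 0% for lysosomal channels.

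Among other channels and pumps of the ER, 5 of 10 rose and 2 fell with the CD146 shRNA. The shares of all genes that rose and fell were 26.8% and 28.5%. RYR2 is the ryanodine receptor of heart muscle and a calcium release channel like the IP3 receptors. It rose to 44.5 ± 1.43 CPM with the CD146 shRNA, against 15.8 ± 0.896 CPM with the control shRNA (log2 fold change 1.501, SE 0.07). TMCO1, a channel that lets calcium leak from an overfilled ER, rose (0.43), and TMBIM6, which lowers the calcium content of the ER, fell (-0.68). In HepG2 the filter left RYR2 out, 1 of 8 tested genes rose, ATP2A1, the SERCA pump of skeletal muscle (0.27), and 1 fell, TMCO1 (-0.14).

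Of the regulators of store-operated entry and related channels, 4 of 15 rose and 3 fell with the CD146 shRNA. This was 46.7% called, against 55.3% of all genes. SARAF, which shuts off STIM1 and ORAI1 after refilling, fell to 107 ± 7.12 CPM with the CD146 shRNA. It stood at 207 ± 3.07 CPM with the control shRNA (log2 fold change -0.96, SE 0.05). SLC35G1, a partner of STIM1, fell to 17.1 ± 1.09 CPM, against 34.0 ± 0.777 CPM (-0.99), and the septin SEPTIN7 fell (-0.59). With overexpression in HepG2, 3 of 13 rose and 0 fell: ESYT3, a tether between ER and plasma membrane (0.79), RASSF4, a regulator of such contacts (0.21), and the cation channel TRPC1 (0.24), whose groups overlapped. SARAF stood at 149.6 ± 2.33 CPM with overexpression and 150.3 ± 2.19 CPM with pLVX.

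Calcium-binding proteins of the ER lumen included 10 of 12 that rose and 0 that fell with the CD146 shRNA, with a median log2 fold change of 0.65. Among all genes, 26.8% rose and 28.5% fell. RCN1, a reticulocalbin, rose to 1059 ± 41.6 CPM with the CD146 shRNA, against 490.1 ± 6.29 CPM with the control shRNA (1.11, SE 0.04). Calreticulin (CALR, 0.83) and PDIA6 (0.82) rose too. CALR and PDIA6 are also chaperones of the ER. With overexpression in HepG2, 1 of 12 rose, RCN1 (0.88), and 6 fell, among them calumenin (CALU, -0.28) and PDIA6 (-0.16). There 9.55% of all genes rose and 10.3% fell.

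Of the genes that make or remove IP3, 3 of 17 rose and 9 fell with the CD146 shRNA, with a median log2 fold change of -0.28. In this comparison 26.8% of all genes rose and 28.5% fell. PLCB3, a phospholipase C driven by G proteins, rose (0.50), and IMPA1 and IMPA2, which recycle inositol, fell (-0.61 and -0.39). Of the regulators of IP3 receptors, 6 of 10 rose and 3 fell. ITPRIP, which binds IP3 receptors (0.75), ERP44, a luminal inhibitor of the ITPR1 product (0.54), and AHCYL1, which competes with IP3 for the receptor (0.31), were among those that rose. With overexpression in HepG2, 0 of 14 genes of IP3 production rose and 2 fell, INPP1 (-0.39) and PLCG1 (-0.10), and 1 of 9 receptor regulators fell, while 0 rose.

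Of 12 genes of mitochondrial calcium uptake, 8 fell and 1 rose with the CD146 shRNA, with a median log2 fold change of -0.16. Over all genes, 28.5% fell and 26.8% rose. The pore MCU rose (0.31), whereas its dominant-negative partner MCUB (-0.51) and the outer membrane channel VDAC3 (-0.33) fell. With overexpression in HepG2, 2 of 13 rose, among them the ion exchanger LETM1 (0.29), and 2 fell, among them MCUR1 (-0.19).

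Among calcineurin, NFAT and calcium sensor genes, 7 of 17 fell and 1 rose with the CD146 shRNA, or 47.1% against 55.3% of all genes. CAMKK2, a kinase activated by calmodulin, fell to 23.8 ± 1.86 CPM with the CD146 shRNA, against 44.5 ± 1.32 CPM with the control shRNA (-0.91), and NFAT5, an NFAT factor that responds to osmotic stress, rose (0.43). In HepG2, 4 of 15 rose, among them NFATC2 (0.29) and NFAT5 (0.15), and 2 fell, among them CALM3 (-0.26).

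Of 5 plasma membrane and Golgi exporters, 2 rose and 0 fell with the CD146 shRNA, or 40% against 55.3% of all genes. Those that rose were ATP2B1, the main plasma membrane calcium pump (0.43), and SLC24A1 (0.69). With overexpression in HepG2, 0 rose and 1 fell, ATP2B1 (-0.13). Of 4 lysosomal channels, TPCN1 (0.24) and TPCN2 (0.49) rose and MCOLN3 fell (-1.41, at 0.433 and 1.16 CPM) with the CD146 shRNA. In HepG2, 0 of 3 lysosomal channels were called.

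**Figure D5:**
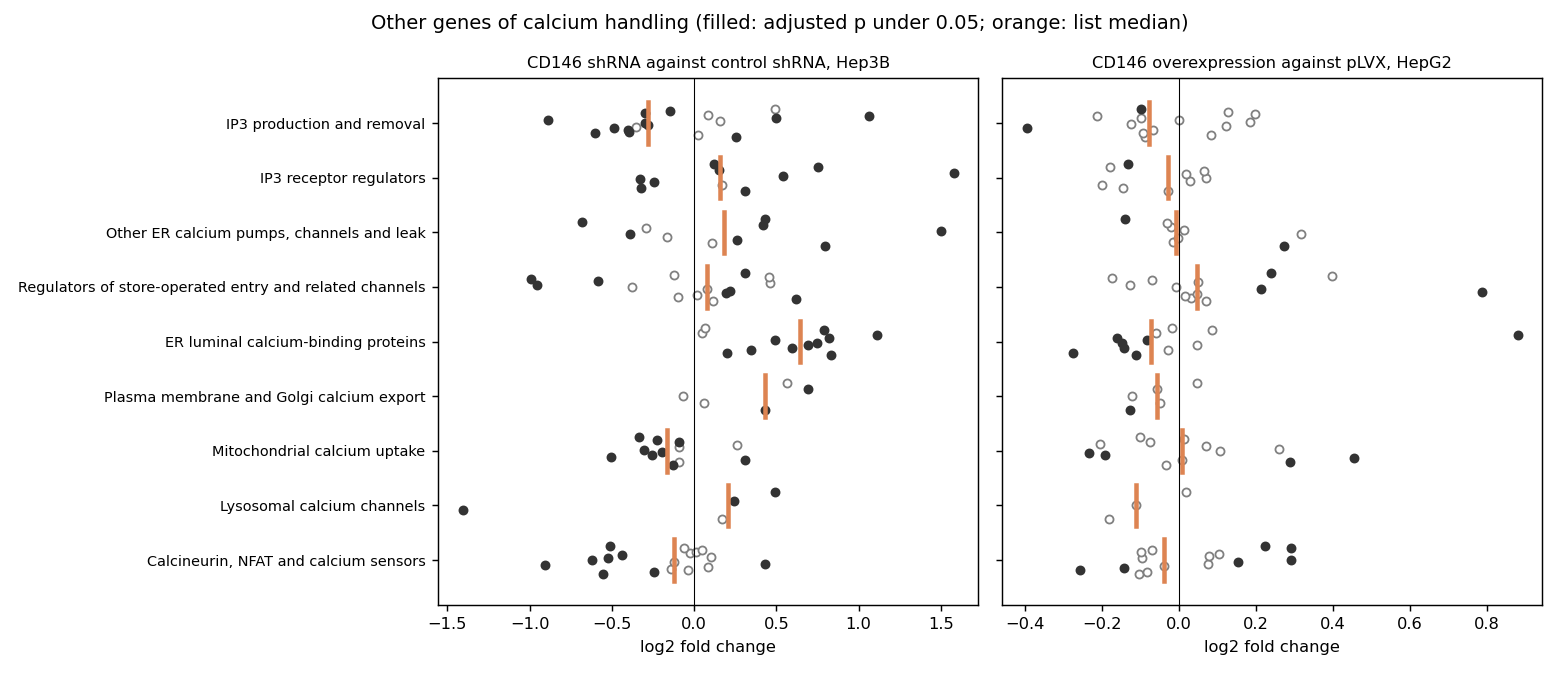
Log2 fold change of each tested gene of the 9 lists, for CD146 shRNA minus control shRNA in libraries labelled Hep3B (left) and CD146 overexpression minus pLVX in HepG2 (right). Filled points had an adjusted p under 0.05, and orange bars are list medians; the luminal proteins have a median of 0.65 on the left and -0.07 on the right. The 2 panels have different scales.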

How the data were processed

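Gene expression was taken from 12 RNA-seq libraries of human cell lines, grouped by their titles. The authors deposited raw, unscaled read counts for Ensembl genes. FPKM, scaled by gene length and library total and listed to 2 decimals, were also deposited by the authors. HISAT2 2.2.1, HTSeq 0.6.1 and cutadapt 1.9.1 stand in the submitters' processing notes. Strand setting, annotation and build are not given in the sources used here, and GENCODE 29 may differ from the annotation counted. Symbols were found for 61757 of 61806 IDs. Positions and transcript lengths came from GENCODE 29 (GRCh38) and promoters from RefSeq (GRCh38.p14), where 7 of the 10 members had an entry.

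The lines were fitted separately in edgeR 4.0.16 (R 4.3.3) by its quasi-likelihood test (TMM, filterByExpr, Benjamini-Hochberg over all genes, threshold 0.05). SEs were taken as |log2 fold change| over the root of edgeR's F value. CPM used the TMM-scaled totals of the fit. Alternatives were DESeq2 1.42.0, its size factors in edgeR, no filter, limma 3.58.1 on log2(FPKM + 0.1) for genes of at least 0.1 FPKM in 3 libraries, a replicate block, and leaving out each library. Fits were tested on simulated data with known changes. Within groups, chi-square per gene between library pairs was 1.69 to 3.58, above sampling noise.

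The members and the lists were chosen with earlier results of these data known. All 10 members are named, with up to 3 called genes of the smallest adjusted p per list and comparison of at least 1 CPM, the 3 genes most like the member with the largest change in each line, and the nearest coding neighbours of members whose neighbours mostly share 1 sign. AC018816.1, EDEM1, UQCC2, ALKBH4 and OR51E2 lie outside the rule and were named after their values were seen. Some genes that the rule names are not reported here.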

Additional observations from a re-analysis of the deposited data

Results flagged for a closer look

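ORAI2 and ORAI3 had separate groups in both lines with the higher level in the perturbed libraries each time, although CD146 was lowered in one line and raised in the other. The log2 fold change of ORAI2 was 0.17 with the CD146 shRNA against the control shRNA and 0.23 with overexpression against pLVX. That of ORAI3 was 0.35 with the CD146 shRNA against the control shRNA and 0.20 with overexpression against pLVX. The difference between lines was not tested, and line and kind of perturbation cannot be told apart. The fits did not call either gene in HepG2. In libraries labelled Hep3B the calls were lost in 6 (ORAI2) and 7 (ORAI3) of 11 alternatives. The HepG2 groups of ORAI2 were barely apart, with the nearest libraries at 6.53 (CD146oe) and 6.499 CPM (pLVX). Among all genes tested, 29.1% in libraries labelled Hep3B and 16.5% in HepG2 had separate groups with the perturbed libraries higher. How many genes had this in both lines was not tested.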

How the results depend on the processing

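With the CD146 shRNA, 5 of the 10 members were called by limma on the FPKM in place of 9, and 5 to 8 when 1 library was left out; the cause was not tested. The calls lost were among ATP2A3, ORAI1, ORAI2 and ORAI3. With overexpression, DESeq2 called 1839 genes and limma 1399 in place of 3037, of which 73.5% were higher with limma against 48.1% in edgeR. For the other genes of calcium handling these calls numbered 15 and 11 in place of 26, and limma called 1 member, ITPR3, in place of 4. The median log2 fold change of all genes was 0.08 with limma and 0.0020 in edgeR. The cause was not tested. No called log2 fold change of a member changed sign under any of the 11 other analyses.

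The labels do not say whether the replicate numbers pair the libraries, and correlations of their deviations were small. Same-numbered deviations correlated at 0.0199 to 0.0423 in libraries labelled Hep3B, where every library correlated best with its own number. In HepG2 they correlated at -0.00367 to 0.0110. With a replicate block, 9543 genes and 10 members were called for the CD146 shRNA, and 2947 genes and 4 members for overexpression. Depth limits ATP2A3, with 67 to 146 counts, and ORAI3, with 74 to 139 counts, in libraries labelled Hep3B, and ORAI2, with 62 to 113 in HepG2.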

Other observations

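The lengths behind the deposited FPKM were worked out as CPM on unscaled totals divided by FPKM. They were 13.7 kb for ATP2A2, 12.04 kb for STIM1 and 8.28 kb for STIM2, where the longest coding transcripts have 4.45, 4.36 and 5.15 kb. Per kb of transcript, STIM1 led STIM2 with the control shRNA, making up 59.7 ± 2.33% of their sum, and STIM2 led with the CD146 shRNA, with STIM1 at 43.0 ± 2.25%. In FPKM STIM1 made up 30.5 ± 1.92% with the CD146 shRNA and 46.3 ± 2.38% with the control shRNA. In HepG2 STIM1 led on both scales, at 75.1 ± 2.79% per kb of transcript with overexpression and 71.2 ± 2.79% with pLVX.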
